A study of Bos taurus with 6 samples.

Results

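The genes described here encode the enzymes of glycolysis and of glycogen making and breakdown in muscle, with the insulin-responsive glucose transporter. They were chosen by name, 31 in all, and a gene counted as measured where a probe set of the array is annotated with that gene alone. Of the 31, 26 were measured, on 33 of the 24016 tested probe sets, and HK2, PHKA1, PHKB, PHKG1 and GYS1 were not analysed here. Where a gene had several probe sets, the one with the highest mean over the arrays stands for it, as for all 9155 genes of the comparison.

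Each array held RNA of longissimus thoracis, a long back muscle, from 1 of 6 castrated male Japanese Black cattle. All of them were 13 to 14 months old at the start and were fattened for 7 months on feed meant for a daily gain of 1.0 kg. The 3 supplemented steers were given vitamin A by mouth every week at 296.8 IU per kg of body weight, and were 600, 612 and 618 days old. The 3 restricted steers had their vitamin A intake restricted and were 589, 595 and 611 days old. The samples are whole muscle, so fewer fibres of a type and less RNA per fibre cannot be told apart.

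Glycolysis splits glucose into pyruvate in the cytosol, and muscle turns pyruvate into lactate when demand for ATP is high. Muscle also stores glucose as glycogen, which phosphorylase cuts down to glucose phosphate for the same pathway. Fast fibres are rich in these enzymes, and several steps have an isoform typical of skeletal muscle beside one found in other tissues. In cattle, muscle glycogen at slaughter is known for its bearing on the fall of pH in meat.

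The deposited values run from 4.807 to 12.83 and are taken as log2 units, but they differ very little between steers, by a median of 0.677 millionths of a unit over the arrays. How so narrow a spread arose is not given here, so no fold change is read from it. Values of a steer are given below as millionths of a deposited log2 unit above or below the mean of the 6 arrays, and differences also in standard deviations (SD) within groups for that probe set. Array medians spanned 8.88 millionths, with supplemented steer 3 lowest at -4.76 and restricted steer 1 highest at 4.11 around their mean. Of the 26 genes, 17 ranged over more than that span, or 65.4%, against 21.3% of all genes and 62.9% of genes above the 90th percentile of deposited value, where 18 of the 26 lie.

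The width of the range differed with the deposited value, but also widely between genes of similar value. Its median was 0.78 millionths from 4 to below 6, 14.6 from 6 to below 8 and 18.8 from 10 to below 11. From 8 to below 10 its 10th and 90th percentiles were 2.24 and 416. The 4 enzymes with a mean of 11 or more, ALDOA, GAPDH, LDHA and ENO3, ranged over 0.46 to 40.9 millionths, and the 21 genes at that height had a median range of 2.67. The 7 enzymes from 8 to below 10 ranged over 24.0 to 1239 millionths, where 259 genes had a median of 21.3. ALDOA, the muscle aldolase, differed by less than a millionth between all 6 steers at a mean of 12.20. UGP2 at 8.35 had a range of 1239, far above the median at its height. A difference in millionths is therefore not comparable between genes, and the SD scale is used for that.

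**Figure D1:**
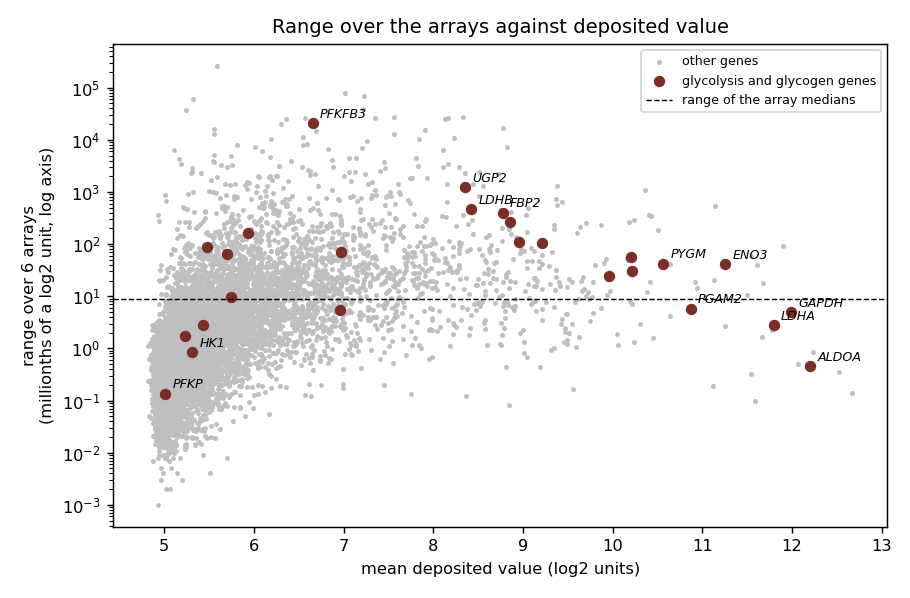
Range over the 6 arrays (millionths of a log2 unit, log axis) against the mean deposited value (log2 units) for 9155 genes, with the 26 glycolysis and glycogen genes as large points and the 8.88 millionths spanned by the array medians as a dashed line. Ranges are widest at middle values, with PFKFB3 at 20598, and narrow again at the top, with ALDOA at 0.46.

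In the comparison of the diets, restricted minus supplemented, 19 of the 26 genes had a lower and 7 a higher mean in the restricted steers. None passed the threshold of limma (moderated linear models over all probe sets, Benjamini-Hochberg adjustment, 0.05), each with an adjusted p of 1.0. Only 0.00416% of probe sets did, which is 1, the retinaldehyde reductase DHRS3. At an unadjusted limma p under 0.05 the genes PYGM and HK1 were lower and 0 were higher, where 2.47% of all genes were lower. The median difference was -0.755 SD, against -0.00788 SD over all genes. The share lower was 73.1%, beside 50.5% of all genes and 44.5% of the 1626 genes above the 90th percentile of deposited value. With array medians set equal by a shift the split was 20 lower and 6 higher, or 76.9% lower beside 89.2% of all genes. On that scaling the share lies below that of all genes. The shift changes every gene of an array by the same amount, however, which weighs most on genes with a narrow range. The median range was 41.5 millionths in the 26 genes and 1.23 in all genes, so these shares are not directly comparable. With quantile normalization 18 of the 26 had group means equal within 0.0005 millionths, as did 65.2% of all genes. Of the others 5 were lower and 3 higher, and the 19.2% of the 26 that were lower stand beside 18.7% of all genes.

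The 2 diets did not overlap in 5 of the 26 genes, or 19.2%, against 8.74% of all genes. PYGM, HK1, PGAM2 and PGK1 were lower in all 3 restricted steers, and FBP2 was higher. With array medians set equal PYGM and FBP2 were still apart, 7.69% of the genes beside 2.06% of all. The limit given above for shares after the shift holds here too. After quantile normalization 0 genes were apart, beside 0.251% of all. PYGM, PGAM2, PGK1 and FBP2 then had equal group means.

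The steers did not take fixed places. Supplemented steer 2 was the highest of the 6 in 10 of the 26 genes, and restricted steer 1 was the lowest in 10. Restricted steer 2 was highest in 6 and lowest in 4. Supplemented steer 1, highest in 2 and lowest in 0, lay in the middle for most genes. Averaged over the genes in SDs over the 6 arrays, the steers stood at 0.0734, 0.557 and 0.239 (supplemented 1 to 3) and at -0.534, -0.0361 and -0.299 (restricted 1 to 3).

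**Figure D2:**
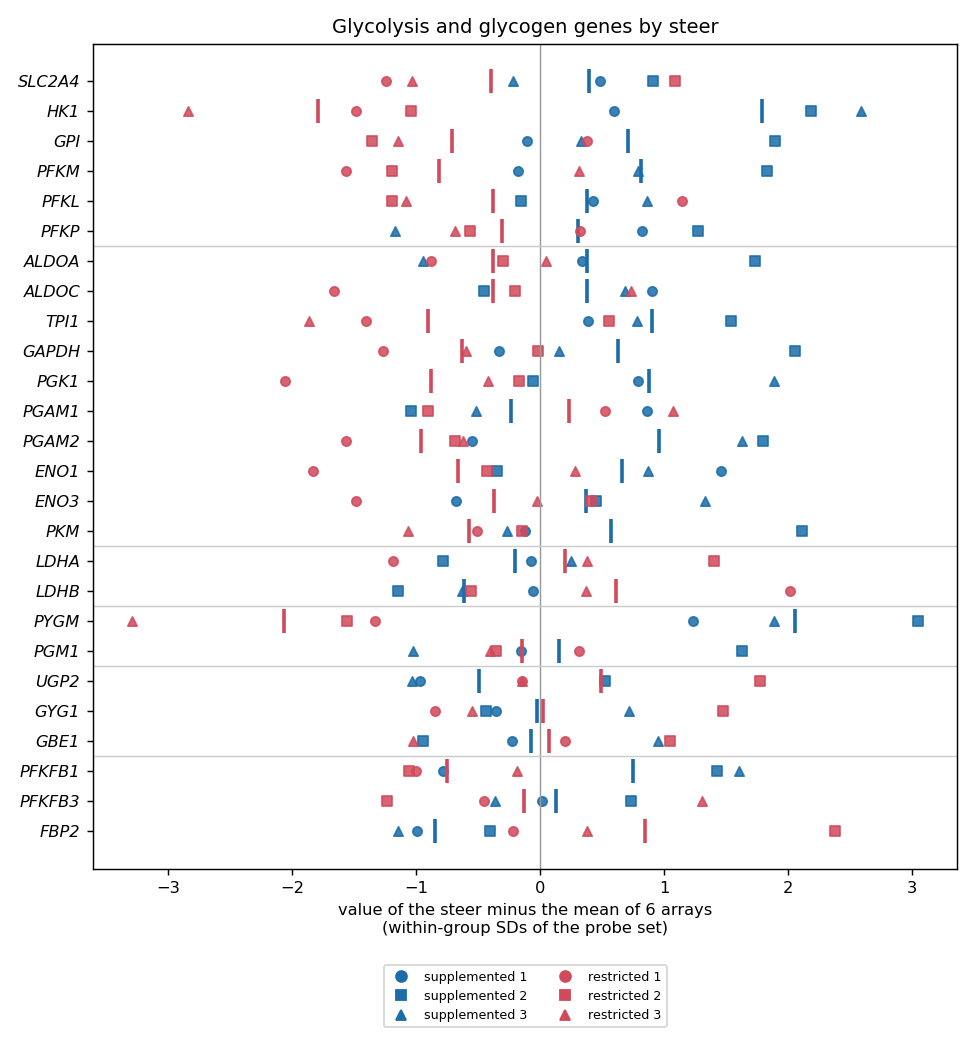
Value of each steer minus the mean of 6 arrays, in within-group SDs, for the 26 genes ordered by role (glucose entry and priming, lower glycolysis, lactate, glycogen breakdown, glycogen making, control of fructose bisphosphate), with vertical ticks at the group means. The 2 diets are apart in HK1, PGK1, PGAM2, PYGM and FBP2, and overlap in the other 21 genes.

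Glycogen breakdown was measured by PYGM and PGM1, both with a lower mean in restricted steers. PYGM, the muscle glycogen phosphorylase, whose loss causes McArdle disease, had a mean deposited value of 10.56. Supplemented steers 1 to 3 stood at 8.18, 20.2 and 12.5 millionths, and restricted steers 1 to 3 at -8.83, -10.3 and -21.8. Every supplemented steer was thus above the mean and every restricted steer below it, with no overlap. Group means were 13.6 ± 6.10 and -13.7 ± 7.09 (SD, n = 3 each), and the difference of -27.3 with an SE of 5.40 equals -4.13 SD (limma unadjusted p = 0.00424, adjusted p = 1.0). It ran from -30.0 to -23.2 when single steers were left out. With quantile normalization the group means of PYGM were equal within 0.0005 millionths. PGM1, phosphoglucomutase, which converts the product of PYGM into glucose 6-phosphate, stood at -6.33, 65.5 and -41.2 in supplemented and at 12.7, -14.3 and -16.3 in restricted steers. Its groups overlapped and its difference was -12.0 or -0.298 SD. The second PGM1 probe set had the opposite sign, 436 or 0.407 SD. The phosphorylase kinase subunits PHKA1, PHKB and PHKG1, of the kinase that activates PYGM, were not analysed here.

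**Figure D3:**
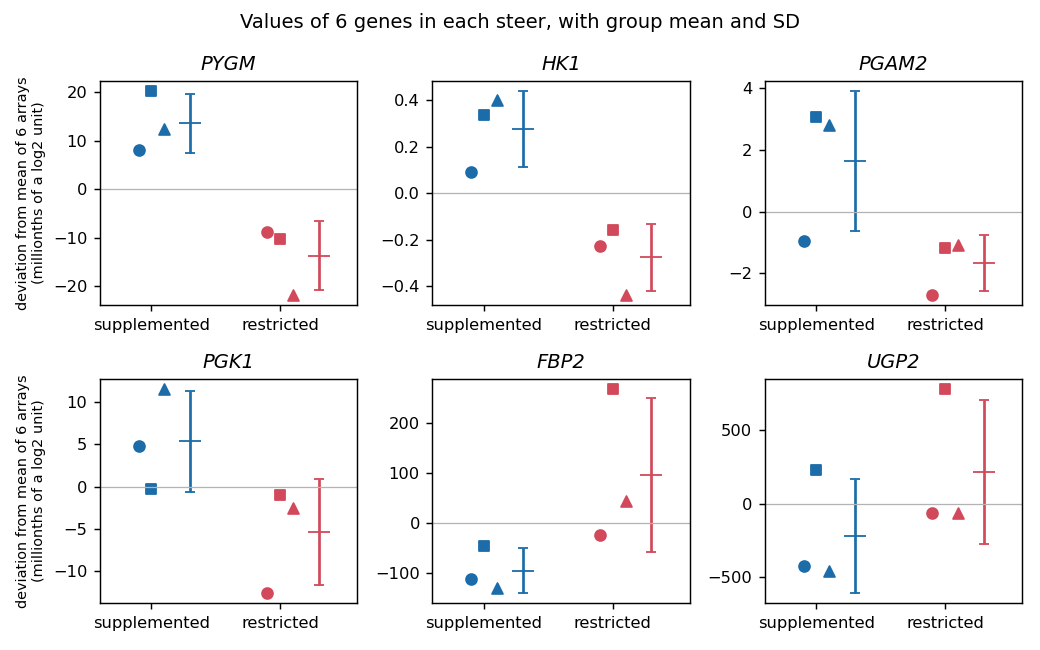
Deviation of each steer from the mean of 6 arrays (millionths of a log2 unit) for PYGM, HK1, PGAM2, PGK1, FBP2 and UGP2, with the group mean and SD (n = 3) beside the points. The groups are apart in the first 5 genes, and in UGP2 restricted steer 2 stands at 782 while the other 2 restricted steers lie near -65.9 and -62.9.

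All 6 measured genes of glucose entry and of the priming steps had a lower mean in restricted steers, but their groups were apart in HK1 alone. HK1, the hexokinase found in most tissues, traps glucose in the cell as glucose 6-phosphate. Its supplemented steers stood at 0.0918, 0.337 and 0.399 millionths and its restricted steers at -0.229, -0.160 and -0.438. The difference of -0.552 (SE 0.126) equals -3.59 SD (limma unadjusted p = 0.00792, adjusted p = 1.0). Its full range of 0.837 is smaller than the 8.88 spanned by the array medians. With array medians set equal the difference was -2.78 or -0.910 SD and the groups overlapped. HK2, the muscle hexokinase, was not analysed here.

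SLC2A4, the transporter GLUT4 that insulin and contraction bring to the surface of the fibre, stood at 18.0, 33.9 and -8.22 in supplemented and at -46.0, 40.5 and -38.3 in restricted steers. Restricted steer 2 was the highest of all, so the groups overlapped, and the difference was -29.2 or -0.787 SD, or -13.5 without restricted steer 1 and -56.7 without restricted steer 2. GPI, which turns glucose 6-phosphate into fructose 6-phosphate, stood at -3.44, 63.1 and 11.1 against 12.6, -45.1 and -38.2. Its difference of -47.1 or -1.42 SD (limma unadjusted p = 0.133) came with 2 low restricted steers and 1 high supplemented one. PFKM, the muscle subunit of phosphofructokinase, the main control point of glycolysis, stood at -1.58, 16.1 and 6.97 against -13.8, -10.5 and 2.77. Restricted steer 3 lay above supplemented steer 1, and the difference was -14.3 or -1.63 SD (limma unadjusted p = 0.0950), or -6.05 with age as a covariate. Of the 3 PFKM probe sets, a second was lower by -20.1 or -0.782 SD and the other was higher by 79.4 or 0.706 SD, and the mean of the 3 had the opposite sign, at 15.0. The liver and platelet subunits PFKL and PFKP differed by -0.900 and -0.0343 millionths, or -0.755 and -0.618 SD, with overlap. PFKL had a higher restricted mean with quantile normalization, at 12.4.

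In lower glycolysis, from aldolase to pyruvate kinase, 9 of 10 genes had a lower mean in restricted steers, and the diets were apart in PGAM2 and PGK1. PGAM2, the muscle phosphoglycerate mutase, stood at -0.950, 3.09 and 2.81 millionths in supplemented and at -2.70, -1.18 and -1.07 in restricted steers. The groups were apart by a small margin, since supplemented steer 1 lay just above restricted steer 3. The difference of -3.30 (SE 1.40) equals -1.92 SD (limma unadjusted p = 0.0610). PGK1, phosphoglycerate kinase, which makes the first ATP of the pathway, stood at 4.82, -0.335 and 11.5 against -12.5, -1.03 and -2.54. Here supplemented steer 2 and restricted steer 2 were the neighbours across the gap, and the difference of -10.7 (SE 4.97) equals -1.76 SD (limma unadjusted p = 0.0778). With array medians set equal the groups of both genes overlapped, at differences of -5.52 and -12.9. With age as a covariate the differences were -1.83 and -7.11.

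TPI1, triosephosphate isomerase, stood at 6.28, 25.3 and 12.8 in supplemented and at -23.0, 9.17 and -30.6 in restricted steers. Restricted steer 2 alone reached into the supplemented range, and the difference was -29.6 or -1.80 SD (limma unadjusted p = 0.0726). GAPDH, the dehydrogenase often used as a reference gene, stood at -0.498, 3.09 and 0.232 against -1.90, -0.0283 and -0.898, a difference of -1.88 or -1.26 SD. It has many close copies in mammalian genomes, so its probe set may not read 1 transcript alone. PKM, pyruvate kinase, had supplemented steer 2 far up at 47.2 and the other 5 steers between -23.7 and -2.80. Its difference of -25.6 or -1.15 SD was -8.42 at its smallest when single steers were left out.

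The remaining genes of this stretch overlapped between the diets. ALDOA differed by -0.130 or -0.754 SD and ALDOC, the aldolase of brain, by -0.500 or -0.755 SD. ENO3, the muscle enolase, stood at -9.81, 6.58 and 19.3 against -21.6, 5.92 and -0.360, a difference of -10.7 or -0.738 SD that was -2.57 without restricted steer 1 and -3.73 without supplemented steer 3. ENO1, the enolase of most tissues, differed by -2.16 or -1.32 SD. PGAM1, the mutase of most tissues, was the 1 gene with a higher restricted mean, by 35.7 or 0.464 SD. It was split within each diet, with supplemented steer 1, restricted steer 1 and restricted steer 3 between 40.5 and 82.5 and the other 3 steers between -80.0 and -39.8. Its difference was 3.38 without restricted steer 3, 4.66 without supplemented steer 2, 79.4 without restricted steer 2 and 77.7 without supplemented steer 1.

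Both lactate dehydrogenase subunits had a higher mean in restricted steers, with overlap. LDHA, the subunit that prevails in fast muscle, stood at -0.0783, -0.848 and 0.272 in supplemented and at -1.28, 1.52 and 0.412 in restricted steers, a difference of 0.437 or 0.406 SD. Its other 2 probe sets differed by -0.958 and -0.0547, and equal array medians gave -1.79. LDHB, the subunit of heart and oxidative fibres, stood at -8.31, -170 and -93.0 against 299, -82.9 and 55.3. Restricted steers 1 and 3 were above all supplemented steers and restricted steer 2 was among them, and the difference was 181 or 1.22 SD (limma unadjusted p = 0.181). With age as a covariate it was 104, and leaving out restricted steer 1 gave 76.6.

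The 3 measured genes of glycogen making also had higher restricted means, none apart from the supplemented group. UGP2, which makes the UDP-glucose that glycogen is built from, stood at -426, 230 and -457 in supplemented and at -65.9, 782 and -62.9 in restricted steers. Steer 2 of each diet was its highest, and the difference was 435 or 0.987 SD (limma unadjusted p = 0.263). Without restricted steer 2 it was 153 and without supplemented steer 2 it was 659. GYG1, glycogenin, the protein primer of a glycogen particle, differed by 5.42 or 0.0466 SD, with restricted steer 2 at 171 and restricted steer 1 at -98.5. GBE1, the branching enzyme, differed by 4.61 or 0.150 SD. For GYG1 and GBE1 the sign depended on single steers, since without restricted steer 2 they stood at -78.5 and -10.3. GYS1, the muscle glycogen synthase, was not analysed here.

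Of the 3 enzymes that make or remove fructose bisphosphates outside the main path, FBP2 stood apart between the diets. FBP2, the muscle fructose bisphosphatase, runs opposite to phosphofructokinase and serves glycogen making from lactate. Its supplemented steers stood at -112, -45.6 and -130 millionths and its restricted steers at -25.1, 269 and 43.1. The difference was 192 (SE 92.6) or 1.69 SD (limma unadjusted p = 0.0864), with restricted steer 2 well above the rest and a value of 105 at its smallest when single steers were left out. PFKFB1 and PFKFB3 make and break fructose 2,6-bisphosphate, the activator of phosphofructokinase. PFKFB1 stood at -2.85, 5.20 and 5.85 against -3.66, -3.85 and -0.688, a difference of -5.47 or -1.50 SD (limma unadjusted p = 0.116). PFKFB3 had the widest range of the 26 genes, 20598 millionths, with 154, 5955 and -2967 in supplemented and -3701, -10020 and 10578 in restricted steers. Restricted steers held both its highest and its lowest value, and the difference of -2095 was -0.258 SD. Of the 3 PFKFB3 probe sets, a second was lower by -0.23 or -0.557 SD and the other was higher by 26.8 or 0.263 SD.

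Muscle isoforms were set against isoforms of other tissues in 9 pairs, by the muscle minus the other gene within each array. In millionths such a difference mostly repeats the gene with the wider range, as PYGM ranged over 42.0 beside 0.248 for the brain phosphorylase PYGB and 0.359 for the liver one, PYGL. The pairs are therefore read with each gene in its own SDs. PYGM, at -4.13 SD, stood beside PYGB at -0.0144 and PYGL at -0.991, pair differences of -4.11 and -3.13 SD. FBP2, at 1.69 SD, and the liver gene FBP1, at -1.25, had a pair difference of 2.94 SD. These 3 pairs had the smallest exact two-sided permutation p that 3 against 3 allows, 0.1, and 0.300 after adjustment over the 9 pairs. PYGM and FBP2 were already apart by themselves, so this p adds nothing on muscle against other isoforms.

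In the other 6 pairs the diets overlapped on the SD scale, with exact permutation p from 0.2 to 1.0. PGAM2 and PGAM1 had opposite signs, -1.92 and 0.464, a difference of -2.38 (exact two-sided permutation p = 0.2). PFKM was at -1.63 beside -0.755 for PFKL and -0.618 for PFKP. In the enolases the other isoform had the larger difference, -0.738 for ENO3 and -1.32 for ENO1, and the aldolases ALDOA and ALDOC were at -0.754 and -0.755. LDHA and LDHB were at 0.406 and 1.22. These pairs hold differences of both orders, and with 3 steers a group none could pass 0.05.

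**Figure D4:**
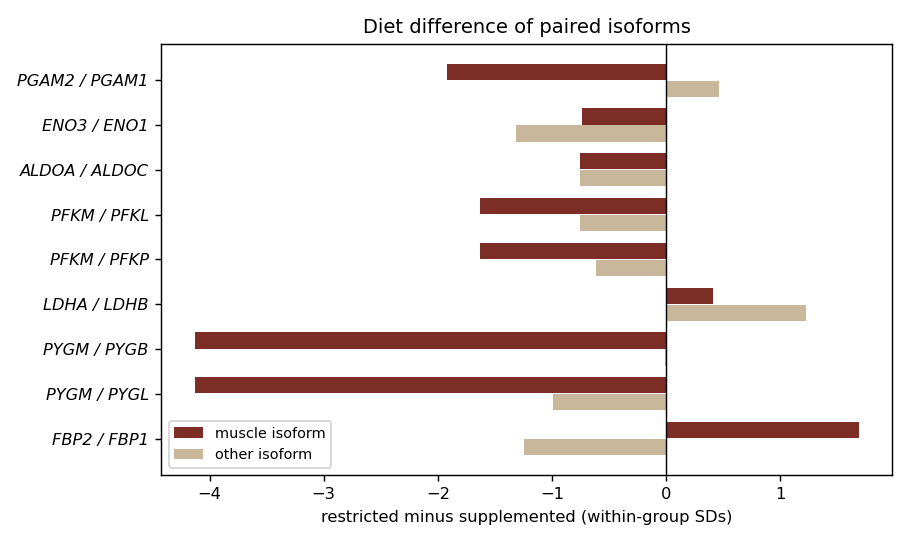
Difference between the diets (restricted minus supplemented, within-group SDs) for the muscle isoform (dark bars) and the other isoform (light bars) of 9 pairs. PYGM stands at -4.13 beside -0.0144 for PYGB, FBP2 and FBP1 have opposite signs at 1.69 and -1.25, and ALDOA and ALDOC are alike at -0.754 and -0.755.

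Other genes of the same metabolism were taken from 6 lists, and 0 of their genes passed limma's adjusted threshold, while MPC2 and SLC25A11 were higher at an unadjusted p under 0.05 (2.15% of all genes were). At the pyruvate branch point, 10 of 13 measured genes had a higher restricted mean, beside 49.5% of all genes, and MPC2, PDHX and PDHB were apart, 3 of 13 where 8.74% of all genes were. With array medians set equal 6 of the 13 were lower, beside 89.2% of all genes, but the median range was 18.2 millionths in this list and 1.23 in all genes. MPC2, a subunit of the carrier that brings pyruvate into mitochondria, differed by 18.1 or 3.47 SD (limma unadjusted p = 0.00829), and PDHX, a binding protein of the pyruvate dehydrogenase complex, by 11.2 or 1.91 SD (limma unadjusted p = 0.0618). Of 10 other glycogen genes 7 had a lower mean, led by PPP1R3C, which targets protein phosphatase to glycogen, at -32.0 or -1.87 SD (limma unadjusted p = 0.0654), and PHKA2, a liver subunit of phosphorylase kinase, at -0.794 or -1.28 SD.

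Of 8 other glycolysis isoforms 5 had a lower mean, with HKDC1, a hexokinase-like protein, at -0.0623 or -1.83 SD, and FBP1 as given above. Of 7 glucose and lactate transport genes 5 had a lower mean, with SLC16A3, the lactate exporter MCT4 of fast fibres, at -140 or -1.38 SD, and the glucose transporter SLC2A8 at -0.104 or -1.30 SD. Shuttles of cytosolic NADH split 3 to 3, with the oxoglutarate carrier SLC25A11 at 53.4 or 2.69 SD (limma unadjusted p = 0.0208) and GPD1L at 0.271 or 1.45 SD. SLC25A11 was apart, 1 of 6 genes where 8.74% of all genes were. Regulators of glycolysis genes split 5 to 5, with MLXIP, a glucose-sensing transcription factor, at -26.1 or -1.97 SD and ARNT, the partner of HIF1A, at -0.155 or -1.39 SD. Of that list only PRKAA1, a catalytic subunit of the energy sensor AMPK, was apart, 1 of 10 genes where 8.74% of all genes were. PRKAA1 was higher by 5.33 or 1.12 SD (limma unadjusted p = 0.214). With array medians set equal 8 of the 8 other glycolysis isoforms were lower, as were 89.2% of all genes.

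Marker lists of fibres and other cells are set beside these genes, and their part in the results was not tested. All 6 measured fast fibre markers, among them the myosin MYH1 and the troponins TNNI2 and TNNC2, were above the 90th percentile of deposited value, as were the 8 measured slow fibre markers, so the arrays read as skeletal muscle. These 6 fast fibre markers, of 11 listed, all had a lower restricted mean, beside 50.5% of all genes. MYH1, the fast IIX myosin, was apart at -26.7 or -3.46 SD (limma unadjusted p = 0.00836, adjusted p = 1.0), a difference near that of HK1 on the SD scale, and the other 5 markers overlapped. MYH1 has 8 probe sets, of which only the 1 with the highest mean was read here. The summed values of the list ran from 65.36043 to 65.36076 in supplemented and from 65.36033 to 65.36049 in restricted steers. Slow fibre markers split 5 higher and 3 lower, with sums from 78.79374 to 78.82113 and from 78.80061 to 78.81796. Such sums are governed by the genes with the widest range, here MYL3 with 27036 millionths. All 6 measured adipocyte markers, of 8 listed, had a higher restricted mean, beside 49.5% of all genes. Their sums ran from 36.88846 to 36.91708 in supplemented and from 36.90266 to 36.92646 in restricted steers, with the widest range in FABP4, 26331 millionths. Marker counts with array medians set equal were not taken. CFD, the adipocyte protease complement factor D, was apart at 157 or 6.35 SD (limma unadjusted p = 0.000717, adjusted p = 1.0), more SDs than any of the 26 genes, and the other 5 overlapped.

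Of the remaining lists, endothelial markers had 4 of 6 genes higher (sums from 31.97931 to 31.97935 and from 31.97932 to 31.97937), and fibroblast markers 2 of 6 (from 41.03886 to 41.09217 and from 41.05232 to 41.06799). COL1A2 had the widest range of the fibroblast list, 39841 millionths. Macrophage markers had 2 of 3 higher with a sum of 15.71441 in every steer, red blood cell markers 2 of 3 with 15.07118, and nerve markers 1 of 2 (from 11.40902 to 11.40929 and from 11.40902 to 11.40927). The nerve marker MBP was apart, 1 of 2 genes where 8.74% of all genes were. It was lower by -3.87 or -3.15 SD (limma unadjusted p = 0.0119) and did not pass the adjusted threshold. Its range of 6.31 millionths is smaller than that of the array medians. The red blood cell markers all lay below the median deposited value, and no array value reaches 0.

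List means were also taken by steer, in SDs over the arrays. Glucose entry, lower glycolysis and lactate did not overlap between the diets, and neither did the pyruvate branch point, by a margin from 0.187 to 0.189, nor the fast fibre markers. Lactate holds 2 genes that each overlapped, and the LDHA difference was -1.79 with array medians set equal. How often other lists of such size are apart was not tested, and list means with equal array medians were not taken. Summed as deposited values, where wide-ranging genes weigh most, lower glycolysis, lactate, the pyruvate branch point and the fast fibre markers all overlapped, lower glycolysis at 2.66 to 66.2 millionths around its mean in supplemented and -60.8 to 24.2 in restricted steers. Lower glycolysis ran from 0.284 to 0.652 in supplemented and from -1.05 to -0.151 in restricted steers, in SDs over the arrays, with restricted steer 1 lowest. Fast fibre markers were also lowest in that steer, at -0.850, and slow fibre markers highest, at 1.21. Restricted steers 2 and 3 stood at -0.499 and 0.127 in fast and at -0.683 and -0.446 in slow fibre markers. Glucose entry was lowest in restricted steer 3, at -0.817. Glycogen making was led by restricted steer 2 at 1.50, with the other 5 steers between -0.628 and 0.291.

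**Figure D5:**
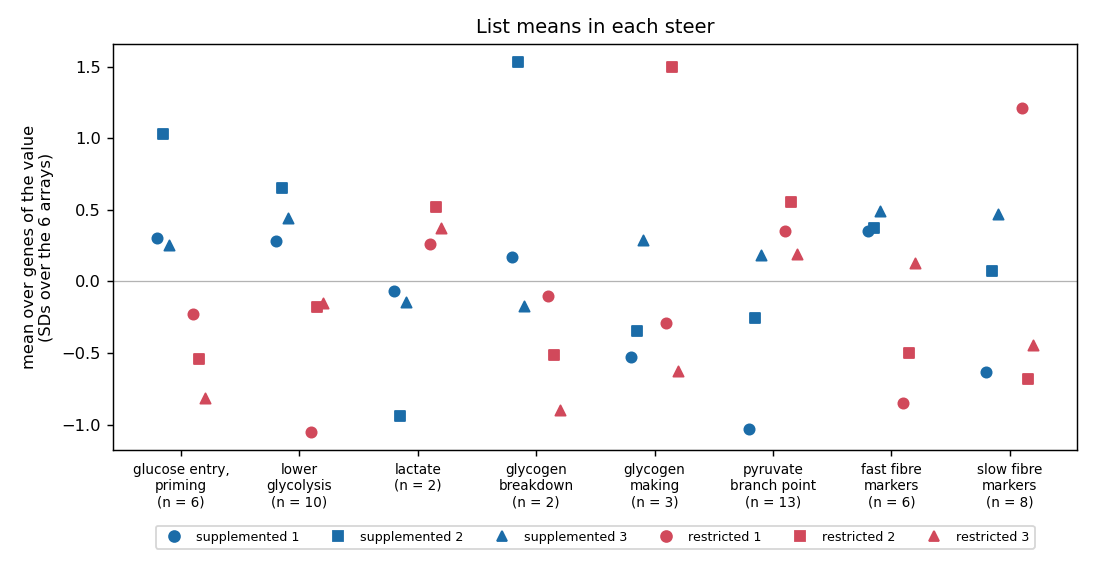
Mean over the genes of a list of each steer's value, in SDs over the 6 arrays, for 5 roles of the glycolysis and glycogen genes, the pyruvate branch point and the fibre markers. Supplemented steers lie above restricted ones in glucose entry and lower glycolysis and below them in lactate, while restricted steer 1 is lowest in fast fibre markers at -0.850 and highest in slow ones at 1.21. Restricted steer 2 is below the mean in both, at -0.499 and -0.683.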

How the data were processed

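Muscle RNA, 100 ng per steer, was hybridised to 6 arrays of the GeneChip 3 prime type, per the labels' protocols. The authors deposited 1 table of 24128 probe sets with 9 decimals, taken as log2 values. The logarithm, background correction, summarization and normalization used are not described in those protocols. The 112 control probe sets were left out. Values were multiplied by 1e+09 and fitted in R 4.3.3 by lmFit and eBayes of limma 3.58.1, with no trend, for restricted minus supplemented, with 4 residual and 0.483 prior degrees of freedom and Benjamini-Hochberg adjustment over 24016 probe sets. The fit was also run on simulated data with known changes. These were larger in SDs than any difference of the 26 genes, so that run does not bear on differences of their size. Each array is a different steer. The p-values set the diet difference against the spread among steers, which includes that of their arrays, and the number of arrays limits the precision. A platform annotation named 13292 tested probe sets with 1 gene.

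All measured members were named, with both genes of each isoform pair, the 2 genes of each other list with the smallest unadjusted p, and DHRS3, PDHB, PRKAA1 and single markers, chosen after their values were seen. Members and lists were chosen with earlier results of these data known. Isoform pairs were compared by exact two-sided permutation tests. No set test was run. Alternatives were array scaling (median shift, quantile), a filter on dim probe sets, averaged probe sets per gene, age as a covariate, array weights, a trend, a replicate block and leaving out single steers.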

Additional observations from a re-analysis of the deposited data

How the results depend on the processing

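None of the 26 genes passed the adjusted threshold in any alternative run. With age as a covariate or with the replicate block 0 probe sets passed, against 1 as reported and from 1 to 2 when single steers were left out. With quantile normalization 35 passed, but 15456 of the 24016 tested probe sets then had equal values on all arrays. The moderated variances of that fit rest on these as well, so its count is not comparable with the others. Deviations from the group means of same-numbered steers had correlations of 0.0374, 0.0151 and 0.0152 over 24014 probe sets. The labels do not say whether a number pairs steers, and correlations over all probe sets cannot decide it. With the replicate block 19 genes were lower as before, and 5 instead of 2 had an unadjusted p under 0.05. UGP2 was among these 5, at 6.01 SD of that fit beside 0.987 SD as reported (limma unadjusted p = 0.00728, adjusted p = 0.928). Quantile normalization left 18 genes with equal group means, so these have no value there, with 3 higher, 5 lower and 0 apart. The count apart was 2 with array medians set equal and from 7 to 11 without single steers, where fewer arrays make a gap more frequent in all genes (17% to 19.8%). PFKP, at the 26.8th percentile of deposited value, was the 1 gene lost to the filter on dim probe sets. Signs turned with averaged probe sets for PFKM (15.0), LDHA (-0.192), PGM1 (212), PFKM minus PFKL (15.9) and PFKM minus PFKP (15.0). They turned with age as a covariate for ENO3 (1.41), GBE1 (-3.96) and PFKFB3 (3061), with array weights for GYG1 (-0.520), with the shift for LDHA (-1.79), and with quantile normalization for PFKL (12.4) and GBE1 (-29.4). Without single steers, LDHA ran from -0.215 to 1.19, PGM1 from -35.6 to 17.8, GYG1 from -78.5 to 56.0, GBE1 from -10.3 to 21.4, PFKFB3 from -7908 to 2391 and ALDOA minus ALDOC from -0.0135 to 0.763. The turns with averaged probe sets follow from another probe set with a larger difference of the opposite sign, 79.4 in PFKM, 436 in PGM1 and -0.958 in LDHA. The LDHA turn with the shift follows from the amount that the shift adds to every gene. The cause of the other turns was not tested.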
